A study of Mus musculus with 12 samples.

Results

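The complement genes described here are 9 of the 47069 genes of the count table, found by their symbols: C1qa, C1qb and C1qc, C2, C3, C4b, Cfb, Serping1 and C3ar1. They were measured by RNA-seq in 12 intracranial B16 F1 tumors of C57BL/6 mice. B16 F1 is a mouse melanoma line, and each tumor grew from 100000 cells placed in the brain and was taken at day 9. The 4 groups of 3 libraries cross tumor presence with antibody treatment. In mice with both tumors (intracranial and extracranial), 3 libraries came from mice given anti-PD-1 plus anti-CTLA-4, called therapy here, and 3 from mice given IgG. Another 3 libraries came from therapy and 3 from IgG in mice that carried the intracranial tumor only. All libraries are of the brain tumor, and the series text describes the replicates as biological. Age, sex, antibody dose and schedule, and the site of the extracranial tumor are not given in the sources used here.

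Complement is a set of proteins that tag cells and debris, recruit leukocytes and can lyse membranes. In the classical pathway, C1q binds its target and activates the proteases C1r and C1s, which cleave C4 and C2 to form the enzyme that splits C3. In the alternative pathway factor B, encoded by Cfb, takes the place of C2. Serping1 encodes the C1 inhibitor, which blocks C1r and C1s, and C3ar1 encodes the receptor for the C3 fragment C3a on myeloid cells. In brain, microglia are the main source of C1q. C2, C4, factor B and the C1 inhibitor are known to be inducible by interferons, and C3 by several inflammatory cytokines.

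The libraries held 18427495 to 22294182 reads, and all 9 genes passed the filter on low counts that left 15925 genes tested. Values are CPM (read counts scaled to the TMM-adjusted library size). Melanocyte and melanoma markers summed to 21470 to 28780 CPM in the 12 libraries, so the labelled tumor was present in each. Replicate 2 of the IgG mice carrying both tumors stood apart from its replicates in several cell type lists, and its label has a different suffix. Replicate 2 of the IgG mice and replicate 3 of the therapy mice with the intracranial tumor only had far higher interferon gamma response genes than the other libraries of their groups. These are bulk samples, so fewer cells of a type and less RNA per cell cannot be told apart.

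The 3 chains of C1q are encoded side by side on the minus strand of chromosome 4 of GRCm38, with C1qb at 136880129 to 136886187, C1qc at 136889804 to 136893065 and C1qa at 136895917 to 136898803. The sequences before the starts of C1qb and C1qc are shown because these neighbouring genes moved together. They come from RefSeq on GRCm38.p6, where 4 of the 9 members had an entry, and are written in the direction of transcription. The capitals mark GAGGAA, the core letters of PU.1 sites, or TTCCTC, which is GAGGAA on the other strand. PU.1 is the myeloid lineage transcription factor.

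C1qb (chr4:136886201-136886450, minus strand): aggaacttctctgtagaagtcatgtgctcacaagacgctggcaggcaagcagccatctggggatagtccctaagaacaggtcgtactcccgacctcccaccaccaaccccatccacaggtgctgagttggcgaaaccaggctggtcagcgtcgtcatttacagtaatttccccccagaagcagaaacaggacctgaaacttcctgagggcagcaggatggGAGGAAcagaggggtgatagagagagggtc
C1qc (chr4:136893066-136893164, minus strand, the bases of the window outside annotated exons): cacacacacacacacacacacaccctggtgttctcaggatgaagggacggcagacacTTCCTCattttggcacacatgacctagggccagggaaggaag

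Of 32851 RefSeq promoters, 23.25% held GAGGAA on either strand in the 250 bases before the start, so a match is common and is a description only. The C1qb match spans bases -30 to -25 from the RefSeq start, and the C1qc match bases -193 to -188.

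C1qa, the A chain, had 237, 539 and 454 CPM with therapy in mice with both tumors, against 60.5, 18.5 and 147 CPM with IgG. It had, in mice with the intracranial tumor only, 15.7, 15.7 and 41.8 CPM with therapy, against 24.9, 114 and 29.0 CPM with IgG. The lowest of the 3 therapy libraries from mice with both tumors was above each of the other 9 libraries, and the other groups overlapped. C1qb, the B chain, had 181, 394 and 340 CPM with therapy in mice with both tumors, against 53.6, 18.9 and 97.4 CPM with IgG. C1qb had, in mice with the intracranial tumor only, 17.6, 15.2 and 40.9 CPM with therapy, against 26.6, 104 and 21.1 CPM with IgG. The B chain had the same highest 3 libraries as the A chain. C1qc, the C chain, had 183, 409 and 390 CPM with therapy in mice with both tumors, against 51.7, 16.5 and 111 CPM with IgG. C1qc had, in mice with the intracranial tumor only, 15.7, 13.6 and 34.2 CPM with therapy, against 24.1, 90.6 and 23.7 CPM with IgG. For all 3 chains, the highest library outside the therapy mice with both tumors was replicate 3 of the IgG mice carrying both tumors or replicate 2 of the IgG mice with the intracranial tumor only. Over the 12 libraries the highest level was 34.46 times the lowest for C1qa, 25.94 times for C1qb and 29.95 times for C1qc.

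C4b, C2 and Cfb lie within one stretch of chromosome 17, in the major histocompatibility complex, and C3 lies farther along the same chromosome (57203970 to 57228136). C4b (34728380 to 34743882), whose product is the thioester protein that binds covalently to targets, was the member with the widest range, 44.46 times from lowest to highest library. It had 563, 1788 and 1216 CPM with therapy in mice with both tumors, against 272, 104 and 265 CPM with IgG. C4b had, in mice with the intracranial tumor only, 40.2, 97.5 and 257 CPM with therapy, against 96.8, 587 and 131 CPM with IgG. The lowest therapy library from mice with both tumors was above all 3 of their IgG libraries but below the highest IgG library from mice with the intracranial tumor only. C4b shares 34.57% of its 50-base windows with its paralog C4a, which had 10 to 79 reads per library, so some reads may be placed at either gene or lost.

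C2 (34862604 to 34898265), the protease of the classical C3 convertase, had the narrowest range, 7.217 times. It had 99.7, 208 and 141 CPM with therapy in mice with both tumors, against 76.4, 36.1 and 81.3 CPM with IgG. C2 had, in mice with the intracranial tumor only, 48.5, 28.9 and 72.9 CPM with therapy, against 39.0, 103 and 52.2 CPM with IgG. As for C4b, the highest IgG library from mice with the intracranial tumor only, replicate 2, exceeded the lowest therapy library from mice with both tumors. Cfb (34856374 to 34862518), the alternative pathway counterpart, was the lowest member, with 5 to 124 reads per library. It had 2.41, 6.17 and 5.47 CPM with therapy in mice with both tumors, against 1.24, 0.253 and 1.74 CPM with IgG. Cfb had, in mice with the intracranial tumor only, 0.608, 0.274 and 1.93 CPM with therapy, against 0.474, 1.91 and 1.02 CPM with IgG. Its 3 highest libraries were the therapy libraries from mice with both tumors. The annotated readthrough gene Gm20547 covers 79.5% of the exon bases of Cfb and 42.77% of those of C2 and had 0 reads in all libraries, so reads over both genes may have been left uncounted and the levels of Cfb and C2 are uncertain.

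C3, the protein on which all pathways converge, had 103, 153 and 117 CPM with therapy in mice with both tumors, against 25.4, 10.7 and 33.6 CPM with IgG. It had, in mice with the intracranial tumor only, 11.6, 16.8 and 19.8 CPM with therapy, against 21.3, 45.4 and 10.6 CPM with IgG. The therapy libraries from mice with both tumors stood clear of the other 9, none of which exceeded 45.4 CPM. The sequence before its start is shown because C3 passed the threshold in more comparisons than the other convertase genes, with a match to TTGCNNAA, letters of C/EBP sites, in capitals. C/EBP factors drive acute phase genes.

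C3 (chr17:57228137-57228386, minus strand): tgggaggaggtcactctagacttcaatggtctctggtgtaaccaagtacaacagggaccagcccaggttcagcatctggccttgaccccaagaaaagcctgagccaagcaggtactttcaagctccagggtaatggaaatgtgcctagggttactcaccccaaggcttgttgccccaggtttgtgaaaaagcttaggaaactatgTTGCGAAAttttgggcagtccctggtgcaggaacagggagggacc

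This match spans bases -45 to -38, and 9.56% of all RefSeq promoters searched held TTGCNNAA on either strand. The letters GAAANNGAA (IRF sites, in 7.13% of promoters) were absent from the windows of C1qb, C1qc, C3 and C3ar1, and C3ar1 matched neither GAGGAA nor TTGCNNAA.

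Serping1, on chromosome 2 (84765387 to 84775444), had 12.8, 48.7 and 42.9 CPM with therapy in mice with both tumors, against 4.69, 4.09 and 6.30 CPM with IgG. Serping1 had, in mice with the intracranial tumor only, 4.04, 2.57 and 8.57 CPM with therapy, against 3.90, 16.7 and 1.34 CPM with IgG. Its 2 highest libraries were therapy libraries from mice with both tumors, and the lowest therapy library of that group lay below replicate 2 of the IgG mice with the intracranial tumor only. C3ar1, on chromosome 6 (122847138 to 122856161), had 26.9, 35.8 and 56.1 CPM with therapy in mice with both tumors, against 10.7, 4.80 and 17.8 CPM with IgG. C3ar1 had, in mice with the intracranial tumor only, 4.31, 5.81 and 13.6 CPM with therapy, against 7.74, 25.0 and 3.98 CPM with IgG. Every therapy library from mice with both tumors exceeded the other 9 libraries, replicate 2 of the IgG mice with the intracranial tumor only by little.

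**Figure D1:**
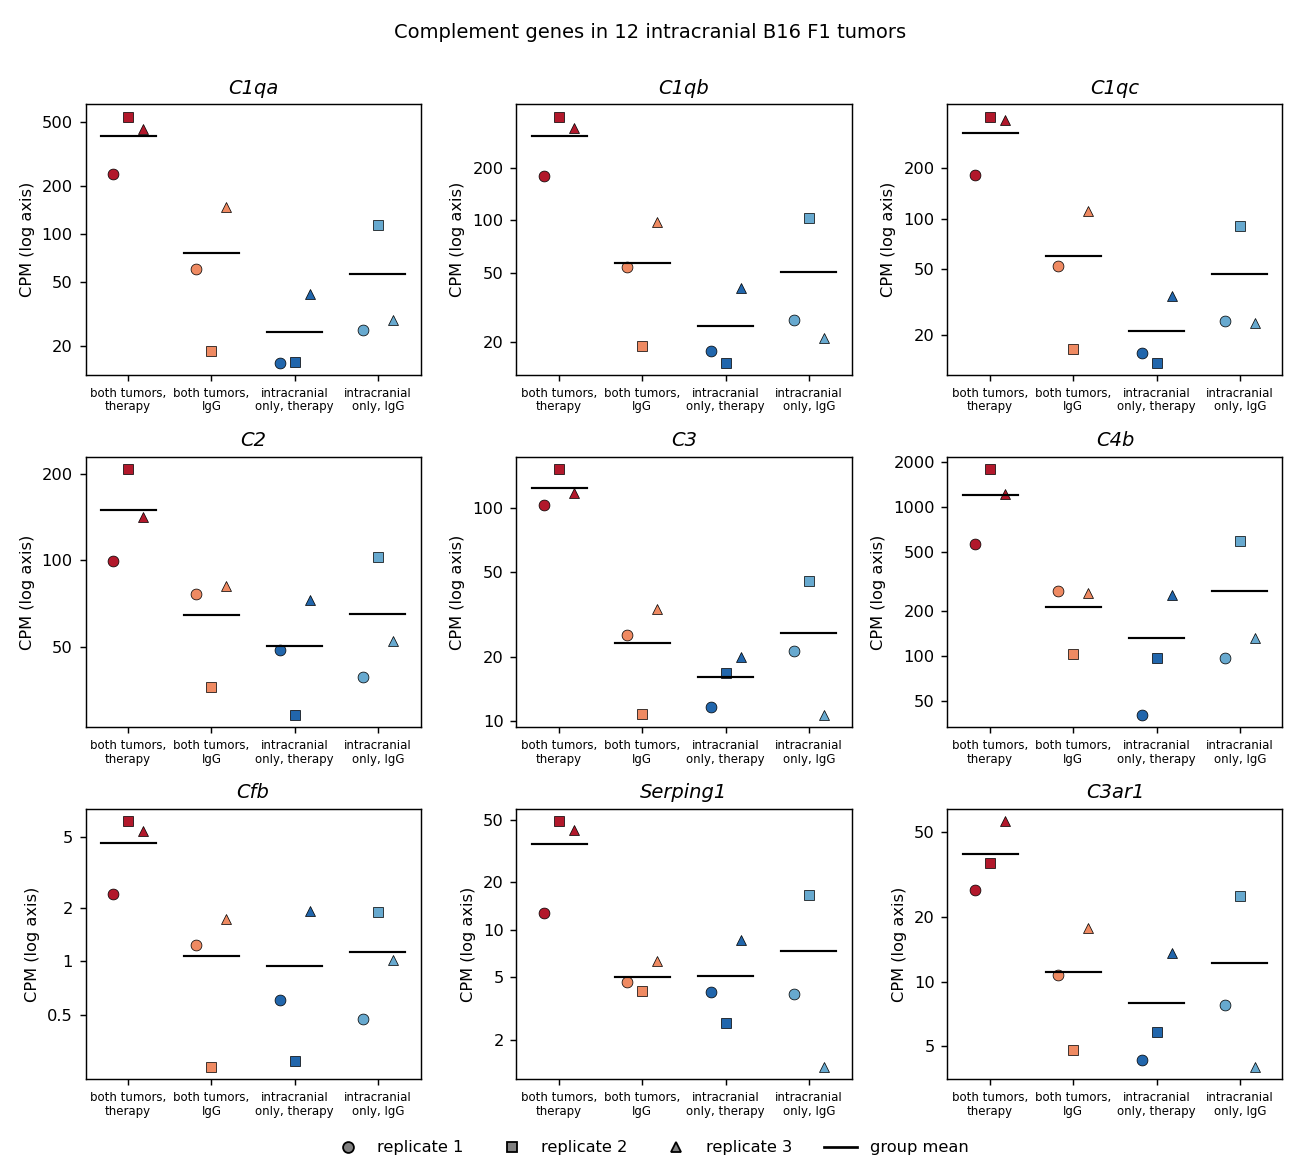
CPM of the 9 complement genes on log axes in the 12 libraries, by group, with replicates as symbols and the group mean as a bar. C1qa, at 237 to 539 CPM under therapy in mice with both tumors, and C3, at 103 to 153 CPM, stand clear of every other library, while C4b, C2 and Serping1 overlap with replicate 2 of the IgG mice with the intracranial tumor only.

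Levels between genes were compared per kilobase of the longest annotated transcript. With therapy in mice with both tumors the order was C1qa (394 ± 150 CPM per kilobase), C1qb (280 ± 102), C1qc (272 ± 104), C4b (221 ± 114), C2 (56.7 ± 20.8), C3 (24.2 ± 4.97), Serping1 (19.7 ± 10.9), C3ar1 (9.20 ± 3.47) and Cfb (1.70 ± 0.726; mean ± SD, n = 3). In each of these 3 libraries C1qa came first, at 227, 519 and 437 CPM per kilobase. C4b came after the 3 C1q chains in each, at 105, 332 and 226. C1qb and C1qc changed places in replicate 3 (312 and 324), as did C3 and Serping1 (22.8 and 24.3). With therapy in mice with the intracranial tumor only, C4b came first by mean at 24.5 ± 20.9 CPM per kilobase. C1qa (23.5 ± 14.5), C1qb (22.6 ± 13.02), C2 (19.0 ± 8.35) and C1qc (17.6 ± 9.43) followed. C4b was above these genes in replicates 2 and 3 (18.1 and 47.8) but below them in replicate 1 (7.47). In the deposited FPKM values C4b came first in every group, at 525 ± 268 FPKM with therapy in mice with both tumors, where C1qa had 400 ± 149 FPKM. The FPKM values use shorter lengths for C4b (2297 against 5379 bases), C2 (1194 against 2641) and C3 (1667 against 5136). C3 was 6th of the 9 by either length in all 4 groups, and C2 was 5th by either length with therapy in mice with both tumors, while the place of C4b in that group, 4th per kilobase and 1st in FPKM, depended on the length used.

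The question of therapy against IgG with both tumors present is how checkpoint antibodies changed complement in the intracranial tumor of mice that also carried an extracranial one. C3 was the only member past the threshold in edgeR's quasi-likelihood test, 1 of 9, against a background of 1.24% of tested genes called higher. Its log2 fold change was 2.42 ± 0.52 (SE, adjusted p = 0.0498, n = 3 per group), a fold of 5.36 with a 95% interval of 2.41 to 11.9. All 9 members had 3 therapy libraries above all 3 IgG libraries, against 17.9% of tested genes. Their median log2 fold change was 2.43, and that of all tested genes 0.02. Without adjustment all 9 had a p under 0.05.

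The initiators C1qa, C1qb and C1qc had log2 fold changes of 2.44 ± 0.80, 2.43 ± 0.73 and 2.46 ± 0.74 and adjusted p values between 0.0623 and 0.0752. Among the convertase genes, C4b had a log2 fold change of 2.48 ± 0.84 (adjusted p = 0.0804), Cfb one of 2.11 ± 0.81 (adjusted p = 0.106) and C2 the smallest of the 9, 1.21 ± 0.46 (adjusted p = 0.105). The inhibitor Serping1 had the largest, 2.79 ± 0.84 (adjusted p = 0.062), and the receptor C3ar1 had 1.83 ± 0.70 (adjusted p = 0.107). DESeq2 called all 9 members and limma voom 4. With RLE size factors, with only these groups in the fit or without the filter 0 were called. Leaving out 1 library gave 4 calls without replicate 3 of the IgG or replicate 1 of the therapy mice with both tumors or replicate 2 of the IgG mice with the intracranial tumor only, and 0 without any of the other 9.

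Levels of several cell type and response lists were also higher with therapy, while melanocyte and melanoma genes had a median of -0.14 on the log2 scale, with 0 of 7 called. The share of all tested genes called higher was 1.24%. Homeostatic microglia markers summed to 286 to 567 CPM with therapy and 92.0 to 253 CPM with IgG, with 2 of 12 genes called higher. Siglech and Gpr34 each had 0 reads in 1 of the 12 libraries. Monocyte and macrophage markers summed to 670.1 to 836 CPM with therapy and 128 to 291 CPM with IgG, with 1 of 12 called. The interferon gamma response list summed to 3724 to 11940 CPM with therapy and 302 to 2214 CPM with IgG, with 0 of 18 called and a median log2 fold change of 2.38. With the mean log2 level of the microglia, the interferon gamma or the neuron list as a covariate, 0 of all 15925 genes were called, members included. C3 was then at 1.40, 1.79 and 2.15 on the log2 scale with the microglia, interferon gamma and neuron lists, and Serping1 at 1.86, 1.59 and 2.76.

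In mice with the intracranial tumor only, therapy against IgG gave no call for any of the 9 members in edgeR's test. The groups of all 9 overlapped. Fitted log2 fold changes ran from -1.20 for C1qa to -0.26 for Cfb, all below 0, with adjusted p between 0.554 and 0.923. The background was 0% called, although 2151 genes had an unadjusted p under 0.05, and 0 of these were members. DESeq2, limma voom and the other alternatives also called 0 members. The 95% intervals of the folds were 0.132 to 1.44 for C1qa, 0.288 to 1.35 for C3, 0.142 to 1.66 for C4b and 0.204 to 2.35 for Serping1. Changes in either direction within these bounds were thus not excluded. The IgG group held 1 library with high values, replicate 2, in which C1qa had 114 CPM and C4b 587 CPM. Without that library the fitted values ran from -0.17 for C1qc to 0.95 for Serping1, and 7 of the 9 were then above 0. Neuron markers summed to 3.68 to 11.8 CPM with therapy and 114 to 367 CPM with IgG, and homeostatic microglia markers to 101 to 108 CPM with therapy and 129.8 to 180.4 CPM with IgG. With the microglia list as a covariate all 9 fitted values were above 0, with the neuron list 5 of 9, and 0 passed the threshold in either fit.

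Both tumors against the intracranial tumor only under IgG asks what the extracranial tumor changed without therapy. No member was called (0 of 9; background 0%, with 188 genes at an unadjusted p under 0.05, of which 0 were members), and the adjusted p was 1 for each. The other tools also called 0 members. Fitted log2 fold changes were 0.43 for C1qa, 0.17 for C1qb and 0.37 for C1qc, and between -0.54 for Serping1 and -0.0041 for C2 in the other members. The groups overlapped for every member. Replicate 2 was the lowest IgG library for each member in mice with both tumors and the highest in mice with the intracranial tumor only. Its distance from the others was not always wide: Serping1 had 4.09 CPM in it against 4.69 and 6.30 CPM with both tumors. The 95% interval of the fold was 0.417 to 4.35 for C1qa, 0.419 to 1.94 for C3 and 0.233 to 2.66 for C4b.

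Under therapy, the same comparison gave calls for every member. All 9 members were higher in mice with both tumors than in mice with the intracranial tumor only, against a background of 24.4% of tested genes called higher. The 3 libraries of one group lay above the 3 of the other for all 9, against 31.4% of tested genes. The median log2 fold change of the members was 2.95, and that of all tested genes 0.03. These libraries with both tumors are the same as in the comparison of therapy with IgG, so the pair of comparisons is not independent.

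The C1q chains led. C1qa was higher by 4.07 ± 0.86 on the log2 scale (SE, adjusted p = 0.00532), a fold of 16.8 with a 95% interval of 4.47 to 63.0, with means of 410.1 ± 156 CPM with both tumors and 24.4 ± 15.1 CPM with the intracranial tumor only (SD, n = 3 each). C1qc was higher by 3.95 ± 0.79 (adjusted p = 0.00478) and C1qb by 3.63 ± 0.77 (adjusted p = 0.00537). Of the convertase genes, C3 was higher by 2.95 ± 0.53 (adjusted p = 0.00455), with 124 ± 25.5 CPM with both tumors and 16.1 ± 4.19 CPM with the intracranial tumor only. C4b was higher by 3.17 ± 0.86 (adjusted p = 0.0136), at 1189 ± 613 CPM with both tumors and 132 ± 113 CPM with the intracranial tumor only. C2 was higher by 1.58 ± 0.47 (adjusted p = 0.0195) and Cfb by 2.29 ± 0.82 (adjusted p = 0.0409). Serping1 was higher by 2.78 ± 0.84 (adjusted p = 0.0211) and C3ar1 by 2.32 ± 0.72 (adjusted p = 0.0234). These adjusted p values are from edgeR's quasi-likelihood test.

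All 9 calls were also made with RLE size factors, without the filter, by DESeq2 and by limma voom. The count was 5 without replicate 1 and 4 without replicate 2 of the therapy mice with the intracranial tumor only, and 5 without replicate 2 of the therapy mice with both tumors. Brain cell markers differed between the same groups, where 24.4% of all tested genes were called higher. Neuron markers summed to 238 to 956 CPM with both tumors and 3.68 to 11.8 CPM with the intracranial tumor only, with 10 of 10 called higher, while Rbfox3, Gad2, Nefl and Nefm each had 0 reads in 1 of the 12 libraries. Homeostatic microglia markers summed to 286 to 567 CPM with both tumors and 101 to 108 CPM with the intracranial tumor only, with 11 of 12 called higher. Interferon gamma response genes summed to 3724 to 11940 CPM with both tumors and 133 to 3447 CPM with the intracranial tumor only, with 0 of 18 called and a median of 2.70. With any of these 3 lists as a covariate 0 of all 15925 genes were called, against 7231 without one, so the loss is not particular to the members. C1qa was then at 2.39 (adjusted p = 0.057) with the interferon gamma list, at 2.04 (adjusted p = 0.733) with the neuron list and at 0.28 (adjusted p = 0.996) with the microglia list. C3 was at 1.90 (adjusted p = 0.057), 2.04 (adjusted p = 0.718) and 0.88 (adjusted p = 0.988) in the same fits.

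The interaction, the therapy effect with both tumors minus that with the intracranial tumor only, was called for 4 of 9 members, against a background of 12.1% of tested genes called higher. These were C1qa (3.64 ± 1.11, adjusted p = 0.0431), C1qb (3.46 ± 1.02, adjusted p = 0.0387), C1qc (3.58 ± 1.03, adjusted p = 0.0372) and C3 (3.10 ± 0.72, adjusted p = 0.0321) on the log2 scale in edgeR's test. As a ratio, the fold of therapy over IgG with both tumors was 12.45 times that with the intracranial tumor only for C1qa. The ratio was 11.0 for C1qb and 11.9 for C1qc, and the lower 95% bounds were 2.26, 2.33 and 2.475. For these 3 chains the fitted effect with the intracranial tumor only was below 0, and its groups overlapped. C4b (3.52 ± 1.15, adjusted p = 0.0512) and Serping1 (3.32 ± 1.15, adjusted p = 0.0594) had log2 values as large without passing. C3ar1 (2.46 ± 0.98, adjusted p = 0.0906), C2 (1.58 ± 0.65, adjusted p = 0.0975) and Cfb (2.37 ± 1.14, adjusted p = 0.148) did not pass either. DESeq2 called 8 members and limma voom 1. Leaving out 1 library gave 5 calls without replicate 1 of the IgG mice with the intracranial tumor only, 2 without replicate 2 and 4 without replicate 3 of the IgG mice carrying both tumors, 6 without replicate 1 of the therapy mice with both tumors, and 0 without any of the other 8. With each of the 3 covariates 0 of all 15925 genes were called, against 3505 without one.

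**Figure D2:**
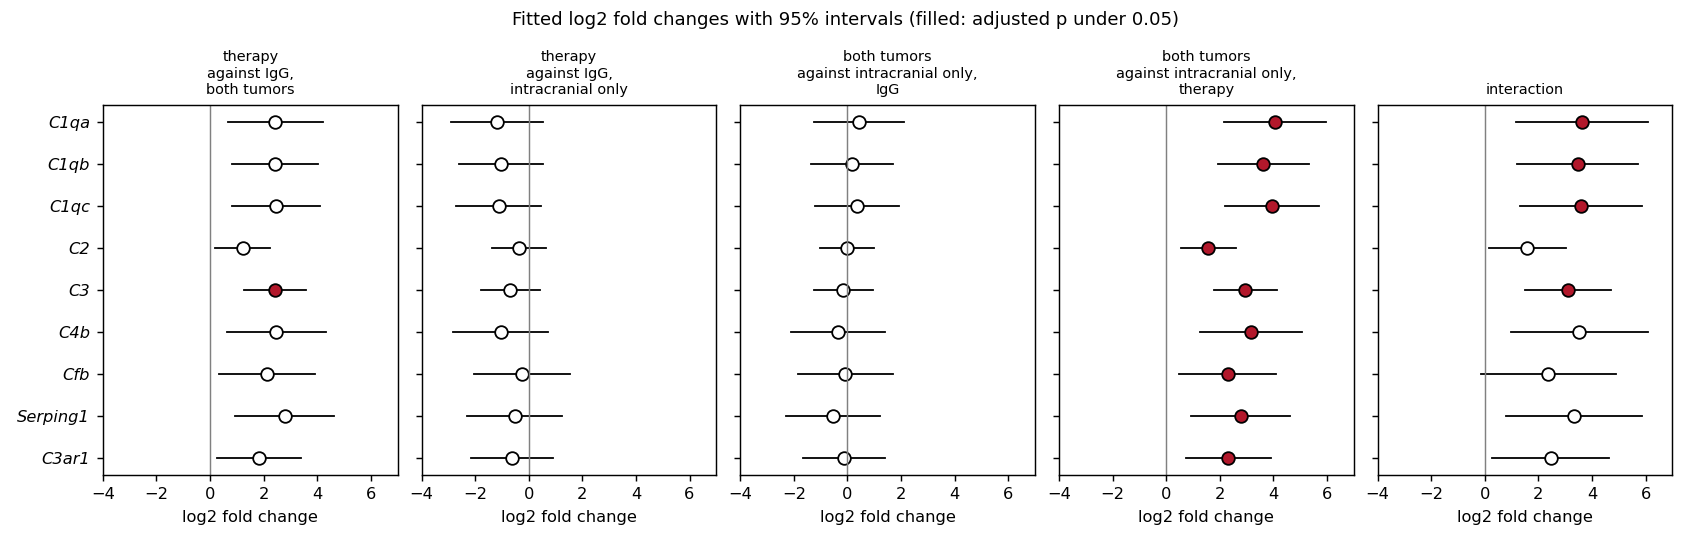
Fitted log2 fold change of each complement gene with its 95% interval in the 5 comparisons, filled where the adjusted p is under 0.05. All 9 are filled for both tumors against intracranial only under therapy, 4 for the interaction and 1, C3, for therapy against IgG with both tumors.

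The C1q trio and the 5 inducible genes (C2, C3, C4b, Cfb and Serping1) were set beside a list of homeostatic microglia genes and a list of interferon gamma response genes in each library, as means of log2 CPM. These are descriptions, with no test. The C1q trio had means of 7.63, 8.79 and 8.61 with therapy in mice with both tumors, against 5.79, 4.17 and 6.87 with IgG. It had, in mice with the intracranial tumor only, 4.03, 3.90 and 5.28 with therapy, against 4.66, 6.68 and 4.61 with IgG. The inducible genes had means of 5.50, 6.80 and 6.43 with therapy in mice with both tumors, against 4.34, 3.17 and 4.61 with IgG. They had, in mice with the intracranial tumor only, 3.21, 3.11 and 4.53 with therapy, against 3.50, 5.29 and 3.37 with IgG. Both sets were highest in the same 2 libraries, replicates 2 and 3 of the therapy mice with both tumors, and lowest in replicate 2 of the therapy mice with the intracranial tumor only.

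Single libraries differed in these levels. Replicates 1 and 3 of the IgG mice carrying both tumors had nearly equal interferon gamma means, 6.32 and 6.34, and unequal microglia means, 2.81 and 3.59. In replicates 1 and 3, C4b had 272 and 265 CPM, C2 76.4 and 81.3 CPM, C3 25.4 and 33.6 CPM, Cfb 1.24 and 1.74 CPM and Serping1 4.69 and 6.30 CPM. C1qa had 60.5 and 147 CPM and C1qb 53.6 and 97.4 CPM in the same libraries. Both sets were thus higher in replicate 3 by their means, with C4b the exception among the genes named. Replicate 3 of the therapy mice with the intracranial tumor only had the second lowest microglia mean of the 12 libraries, 0.76, and an interferon gamma mean of 6.95, against 2.08 and 3.15 in replicates 1 and 2. In that library both sets were higher than in its replicates, with C4b at 257 CPM against 40.2 and 97.5 CPM in replicates 1 and 2, and C1qa at 41.8 CPM against 15.7 CPM in each of them. Replicate 2 of the IgG mice with the intracranial tumor only had an interferon gamma mean of 7.53, against 1.97 and 2.26 in replicates 1 and 3, with microglia means of 2.84, 2.17 and 2.47 in replicates 2, 1 and 3. There C4b had 587 CPM against 96.8 and 131 CPM, Serping1 16.7 CPM against 3.90 and 1.34 CPM, and C1qa 114 CPM against 24.9 and 29.0 CPM. Monocyte and macrophage markers were also highest in these libraries of their groups, with means of 3.26 against 1.88 and 2.50, and of 4.32 against 1.61 and 1.33.

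**Figure D3:**
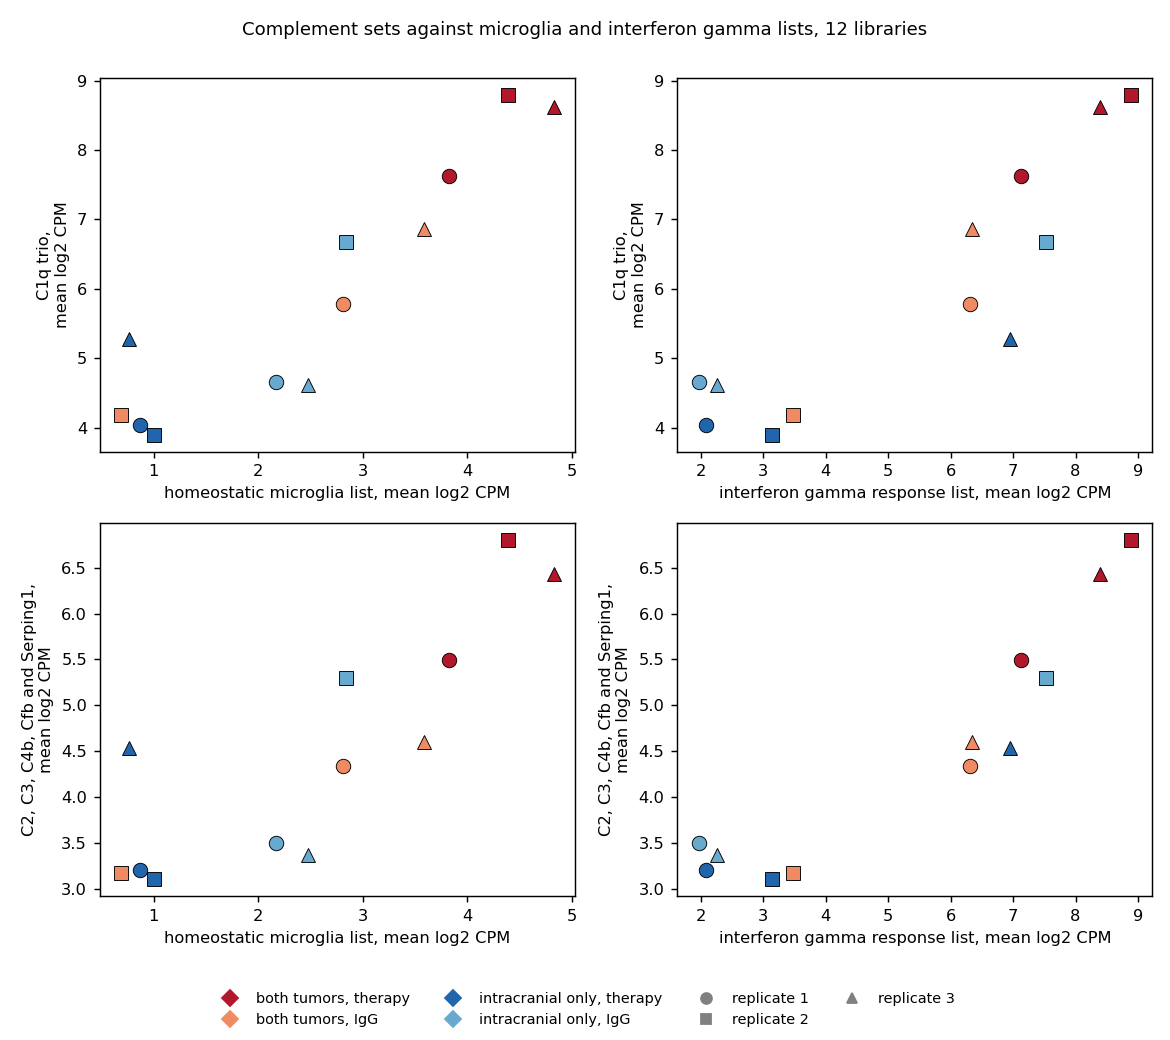
Mean log2 CPM of the C1q trio (top) and of C2, C3, C4b, Cfb and Serping1 (bottom) against that of homeostatic microglia genes (left) and interferon gamma response genes (right), 1 symbol per library. Replicate 3 of the therapy mice with the intracranial tumor only lies at a microglia mean of 0.76 but above its replicates in both sets, at 5.28 and 4.53.

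The balance between the sets differed by group. The inducible genes minus the C1q trio came to -2.14, -1.99 and -2.18 on the log2 scale with therapy in mice with both tumors, against -1.45, -1.0 and -2.26 with IgG. The difference in mice with the intracranial tumor only was -0.83, -0.79 and -0.75 with therapy, against -1.16, -1.38 and -1.24 with IgG. By group mean, C1q stood highest relative to the inducible genes with therapy in mice carrying both tumors and least high with therapy in mice with the intracranial tumor only, and these therapy libraries did not overlap. C2 over C1qb, as a ratio of FPKM, was 0.503, 0.482 and 0.379 with therapy in mice with both tumors, against 1.30, 1.74 and 0.760 with IgG. The ratio in mice with the intracranial tumor only was 2.51, 1.73 and 1.63 with therapy, against 1.33, 0.907 and 2.26 with IgG. Other members were not all alike in this. Between the therapy groups, with both tumors first, Serping1 over C1qb did not overlap either (0.0534 to 0.0951 and 0.128 to 0.172). Nor did C3ar1 over C1qb (0.0230 to 0.0417 and 0.0618 to 0.0967). C4b over C1qb did overlap (1.48 to 2.15 and 1.08 to 3.04), as did C3 over C1qb (0.225 to 0.373 and 0.317 to 0.721). The C1q trio minus the microglia list was 3.81, 4.40 and 3.79 with therapy in mice with both tumors, against 2.98, 3.48 and 3.28 with IgG. It was, in mice with the intracranial tumor only, 3.16, 2.89 and 4.52 with therapy, against 2.49, 3.84 and 2.14 with IgG. C1q therefore stood higher relative to microglial genes in each therapy library from mice with both tumors than in each of their IgG libraries. This did not hold relative to the monocyte and macrophage list. The C1q trio minus that list was 3.390, 4.087 and 3.982 with therapy in mice with both tumors, against 2.514, 1.968 and 4.093 with IgG.

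Within C1q, the ratio of C1qa to C1qb in FPKM was 1.37, 1.43 and 1.40 with therapy in mice with both tumors, against 1.18, 1.02 and 1.58 with IgG. It was, in mice with the intracranial tumor only, 0.928, 1.08 and 1.07 with therapy, against 0.978, 1.15 and 1.44 with IgG. The 3 chains form the protein in equal numbers, and this ratio stayed between 0.928 and 1.58 while C1qa itself ranged 34.46 times.

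**Figure D4:**
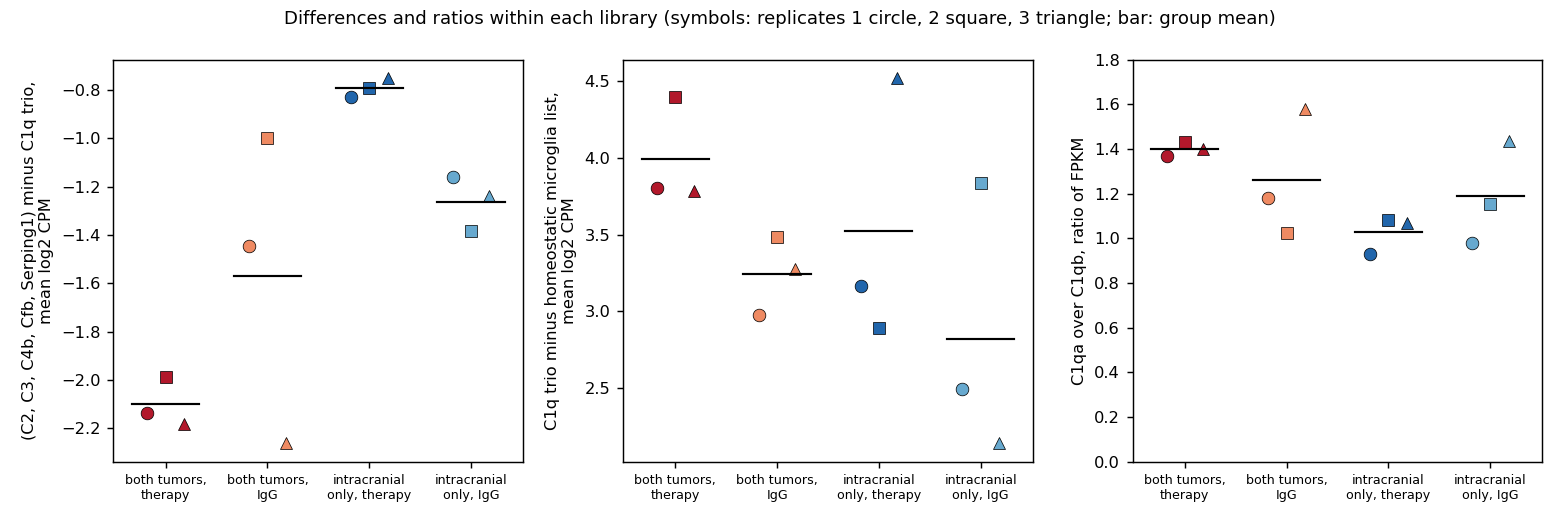
Differences and a ratio taken within each library: the 5 inducible genes minus the C1q trio, the C1q trio minus homeostatic microglia genes (both mean log2 CPM), and C1qa over C1qb in FPKM, with group means as bars. The inducible genes minus the C1q trio lie at -2.18 to -1.99 with therapy in mice carrying both tumors and at -0.83 to -0.75 with therapy in mice with the intracranial tumor only.

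Likeness of profiles was measured as the root mean square difference of log2 CPM over the 12 libraries, each gene centred on its own mean. Among the members, C1qa and C1qc were closest (0.125), then C1qb and C1qc (0.158) and C1qa and C1qb (0.242). The next pair was C3 and its receptor C3ar1 (0.421), and the largest difference was between C1qa and C2 (1.05). Profiles were not scaled, so genes that rise and fall together by unlike amounts also differ by this measure. The SD over the 12 libraries was 1.78 for C1qa and 0.808 for C2 on the log2 scale. Among 13856 other genes, C1qb was closest to Csf2rb2 (0.218), a chain of cytokine receptors on myeloid cells, and to Tyrobp (0.254), an adaptor of myeloid and microglial receptors. C1qa was closest to Cd83 (0.287) and then to Ighm (0.320), and C1qc was closest to Csf2rb2 (0.298). C3ar1 was closest to Tlr13 (0.226), a receptor for bacterial RNA, and P2ry6 (0.233), a nucleotide receptor of microglia. C4b was closest to Snx20 (0.295) and the leukocyte actin regulator Coro1a (0.304). C3 was closest to the amino acid transporter gene Slc7a2 (0.292) and the cannabinoid receptor gene Cnr2 (0.325), C2 to Cpq (0.150) and Cfb to Fgd3 (0.317). Serping1 had the least close neighbours, Bst1 (0.408), Rinl (0.433) and C1ra (0.435), which encodes the protease that its product inhibits.

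Of 44 other complement genes, 27 could be tested. Under therapy in mice carrying both tumors, 1 of 27 rose against IgG in edgeR's test, against 1.24% of all tested genes. Their median log2 fold change was 1.11. In mice with the intracranial tumor only therapy gave 0 calls in edgeR's test and DESeq2 gave 2, and under IgG both tumors against intracranial only gave 0 with both tools. Under therapy 16 of 27 were higher in mice with both tumors than in mice with the intracranial tumor only and 0 lower, with a median of 1.25, against 24.4% of all tested genes called higher.

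Of the genes that start the cascade, 4 of 9 were higher under therapy with both tumors. C1s1, the gene of a C1 protease that the C1 inhibitor blocks, was higher by 2.01 ± 0.64 (adjusted p = 0.027), the lectin pathway protease gene Masp1 by 2.93 ± 0.95 (adjusted p = 0.0284) and C1rl by 1.11 ± 0.31 (adjusted p = 0.0144). Of the alternative and terminal pathway genes 1 of 3 was higher, a share near that of all tested genes: the properdin gene Cfp, whose product stabilises the alternative convertase (1.61 ± 0.50, adjusted p = 0.0245). The terminal genes Hc, C6, C7, C8b and C9 fell below the filter. Of the regulators 6 of 9 were higher, among them Clu, at 147 ± 53.3 CPM with both tumors and 6.39 ± 2.67 CPM with the intracranial tumor only (4.53 ± 0.81, adjusted p = 0.00455), and Cd59a (1.22 ± 0.23, adjusted p = 0.00458). Clu is abundant in astrocytes, whose markers summed to 1186 to 2120 CPM with both tumors and 347 to 377 CPM with the intracranial tumor only. Csmd1, which encodes a complement inhibitor of neurons, had 0 CPM in all 3 therapy libraries of mice with the intracranial tumor only, so no fold is given. Of the receptors 5 of 6 were higher, led by the complement receptor integrin genes Itgax (4.00 ± 0.92, adjusted p = 0.00707), Itgb2 (2.70 ± 0.68, adjusted p = 0.0102) and Itgam (2.61 ± 0.71, adjusted p = 0.0141). The interaction was called for 6 of 27, against 12.1% of all tested genes called higher, among them Clu (4.60 ± 1.03, adjusted p = 0.0321), Itgam (3.30 ± 0.98, adjusted p = 0.0399), Cd59a (1.07 ± 0.32, adjusted p = 0.0411) and C1rl (1.34 ± 0.43, adjusted p = 0.0485). These are edgeR values.

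**Figure D5:**
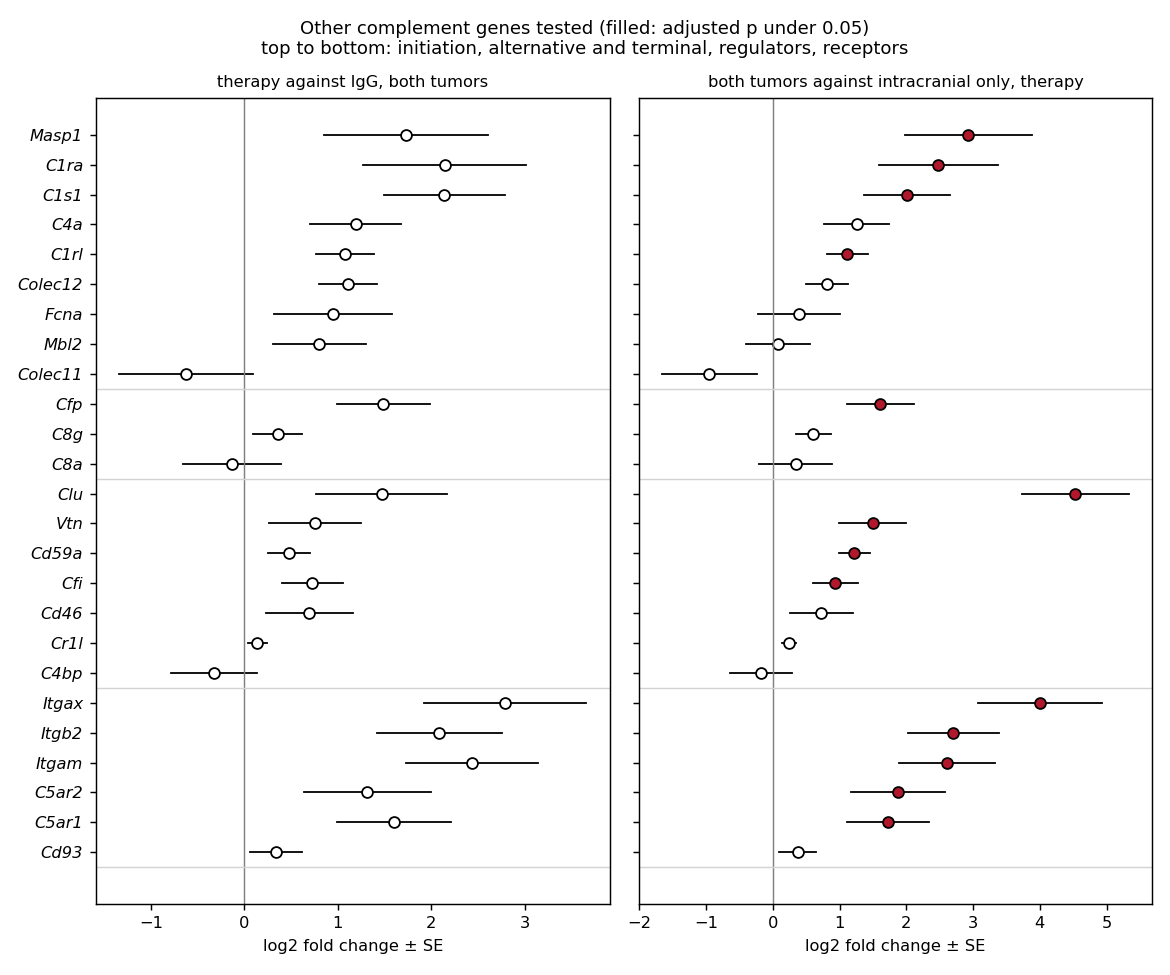
Log2 fold change ± SE of the other complement genes tested, without Csmd1 and the gene not reported here. Therapy against IgG with both tumors is on the left, and both tumors against intracranial only under therapy on the right. Symbols are filled where the adjusted p is under 0.05. On the left none of the genes drawn is filled, and on the right Clu is farthest out, at 4.53.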

How the data were processed

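RNA-seq was run on 12 intracranial B16 F1 tumors in 4 groups of 3. Groups come from the labels' tumor presence and treatment, and replicates were numbered in accession order, since the labels give no replicate number, batch or pairing. The deposited values are raw read counts for each Ensembl gene. Per the submitters' processing notes, the authors used TopHat2 2.0.12, Bowtie2 2.2.3 and HTSeq 0.6.1, with the builds given as GRCm38 and mm10. The annotation release and the use of strand in counting are not given in the sources used here, so reads over overlapping or near-identical genes may be split or lost. The deposited FPKM table equals the counts divided by 1 length per gene and by the library total, within a relative tolerance of 1e-06 for the 16062 genes with a read in every library. A symbol was matched to 46488 of 47069 identifiers. Coordinates and transcript lengths are from a GENCODE annotation of GRCm38, and promoter sequences are from RefSeq (GRCm38.p6).

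In R 4.3.3, edgeR 4.0.16 was applied to the counts (quasi-likelihood test) with TMM factors, filterByExpr (minimum count 10, minimum total 15) and 4 group means over all 12 libraries. P values were adjusted by Benjamini-Hochberg across the 15925 tested genes in each of 5 comparisons, with a threshold of 0.05. Standard errors were computed as the size of the log2 fold change over the root of its F statistic. Library totals were 18427495 to 22294182 reads, and the common dispersion was 0.112, a coefficient of variation of 33.5%. No libraries of a group matched within sampling noise (chi-square per degree of freedom 15.43 to 94.15). The method was tested on simulated data. List levels are means of log2 CPM (prior count 2) over a list's tested genes. Described genes were all 9 members and, of each list of other complement genes, up to 3 with the smallest p among those called. Genes most like a member needed a mean of at least 1 CPM. The members and all lists were chosen with earlier results of these data known.

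Alternatives were RLE size factors, no filter, DESeq2 1.42.0, limma 3.58.1 with voom and on log2(FPKM + 1) and log2(FPKM + 0.1), a fit of only the groups compared, a list mean as a covariate, C4b and C4a summed, and leaving out each library. Leaving out replicate 2 of both IgG groups together was chosen after seeing the data, as were the levels per longest transcript. One of the other complement genes and 1 motif are not reported here, also in the plot of other complement genes.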

Additional observations from a re-analysis of the deposited data

Results flagged for a closer look

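The interaction term in edgeR's quasi-likelihood test was called for 4 complement genes. It compares the effect of therapy between mice with both tumors and mice with the intracranial tumor only. Leaving out 1 library gave 0 to 6 members called. The difference between the therapy effects, on the log2 scale, was 3.64 for C1qa (adjusted p = 0.0431), 3.46 for C1qb (adjusted p = 0.0387), 3.58 for C1qc (adjusted p = 0.0372) and 3.10 for C3 (adjusted p = 0.0321). Each was made of a positive fitted effect with both tumors, between 2.42 and 2.46, and a negative fitted effect with the intracranial tumor only, between -1.20 and -0.68. In the second of these the 3 therapy libraries overlapped with the 3 IgG libraries for each gene. The level of the homeostatic microglia list moved the same way, with 8 of its 12 genes called in the same interaction. The share of all tested genes called higher in it was 12.1%. With the microglia list as a covariate 0 of all 15925 genes were called. The values were then -0.00588 for C1qa, 0.36 for C1qb, 0.13 for C1qc and 1.06 for C3. The negative fitted effects with the intracranial tumor only depended on replicate 2 of its IgG mice. Without that library and without a covariate they were 0.0472 for C1qb and 0.0124 for C3, and stayed below 0 for C1qa and C1qc.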

How the results depend on the processing

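The direction of all 9 members held for therapy against IgG with both tumors present under every alternative run. The number of members called did not: against 1, it was 0 with RLE size factors, without the filter, with only the compared groups, with each of the 3 covariates and without replicate 2 of both IgG groups, 9 with DESeq2, 4 with voom, 6 with log2(FPKM + 1) and 4 with log2(FPKM + 0.1). For both tumors against intracranial only under therapy the count was 9 except with the 3 covariates (0 each, as of all 15925 genes in every comparison). For the interaction, against 4, it was 8 with DESeq2, 1 with voom, 0 with each covariate and 1 without replicate 2 of both IgG groups. Leaving out 1 library gave 0 to 4, 4 to 9 and 0 to 6 calls in these 3 comparisons. In the other comparisons 0 members were called throughout. Other complement genes called for therapy in mice with both tumors numbered 1, against 9 with DESeq2, 0 without replicate 2 of both IgG groups and 0 to 7 without 1 library. With the intracranial tumor only they numbered 0, against 2 with DESeq2, 2 without these replicates and 0 to 3 without 1 library. Between tumor states under therapy they numbered 16, and 7 to 19 without 1 library, and for the interaction 6, against 12 with DESeq2, 3 without these replicates and 0 to 7 without 1 library. Genes called overall ran from 0 to 3139 for therapy in mice with both tumors (858 in the edgeR test reported), from 0 to 1067 for therapy with the intracranial tumor only (0), from 0 to 8443 between tumor states under therapy (7231) and from 0 to 4784 for the interaction (3505). C4b summed with C4a changed no call.

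Some fitted log2 fold changes reversed in sign. For therapy in mice with the intracranial tumor only, the microglia covariate gave C1qa 0.73, C1qb 0.56, C1qc 0.67, C2 0.48, C3 0.34, C4b 0.23, Cfb 1.56, Serping1 0.28 and C3ar1 0.71. The neuron covariate gave C1qa 0.23, C1qb 0.0305, C1qc 0.24, C2 0.36 and Cfb 1.31, and voom gave Serping1 0.0268. Without replicate 2 of both IgG groups C1qb was at 0.0479, C2 at 0.14, C3 at 0.0126, C4b at 0.21, Cfb at 0.36, Serping1 at 0.96 and C3ar1 at 0.44. Leaving out 1 library gave -1.65 to 0.0472 for C1qb, -0.76 to 0.14 for C2, -1.05 to 0.0124 for C3, -2.02 to 0.21 for C4b, -1.37 to 0.35 for Cfb, -1.18 to 0.95 for Serping1 and -1.31 to 0.44 for C3ar1. For both tumors against intracranial only under IgG, C2 was at 0.00369 without the filter, 0.00239 with DESeq2, 0.0315 with voom, 0.0331 with log2(FPKM + 1), 0.0336 with log2(FPKM + 0.1), 0.0712 with the neuron and 0.0234 with the microglia covariate. C4b was at 0.00129 with voom, 0.00111 with log2(FPKM + 1) and 0.00342 with log2(FPKM + 0.1), Serping1 at 0.13 with voom and 0.13 with log2(FPKM + 0.1), and C3ar1 at 0.0772 with voom, 0.0252 with log2(FPKM + 1) and 0.0771 with log2(FPKM + 0.1). The interferon gamma covariate gave C1qa -0.0915, C1qb -0.24 and C1qc -0.11. Without replicate 2 of both IgG groups C2 was at 0.79, C3 at 0.89, C4b at 1.24, Cfb at 0.99, Serping1 at 1.06 and C3ar1 at 1.28. Leaving out 1 library gave -0.50 to 1.49 for C1qa, -0.48 to 1.25 for C1qb, -0.44 to 1.32 for C1qc, -0.27 to 0.50 for C2, -0.52 to 0.54 for C3, -0.75 to 0.91 for C4b, -0.59 to 0.53 for Cfb, -1.04 to 0.94 for Serping1 and -0.66 to 0.92 for C3ar1. Under therapy the microglia covariate gave C2 -0.15, Cfb -1.39 and C3ar1 -0.36, all of which were called without it. For the interaction it gave C1qa -0.00588, which was called without it, and C2 -0.17, Cfb -1.15 and C3ar1 -0.22, which were not. The cause was not tested. No paired analysis was possible because the labels give no replicate numbers. Cfb rests on 5 to 124 reads per library, and 3 libraries per group limit every interval.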

Other observations

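Among genes outside complement, the NF-kB and acute phase list had 2 of 10 tested genes called higher with therapy against IgG with both tumors present, by edgeR's quasi-likelihood test. The share of all tested genes called higher there was 1.24%. Socs3, a feedback inhibitor of cytokine signalling, was higher by 1.72 ± 0.43 (SE, log2 scale, adjusted p = 0.0498), and the acute phase gene Saa3 by 1.99 ± 0.50 (adjusted p = 0.0498). All calls in this comparison lay just under the threshold, as 0.0498 was the smallest adjusted p of any gene in edgeR's test. With RLE size factors, without the filter or with only these groups in the fit, 0 genes were called. Leaving out 1 library gave 0 to 2394 genes called. Under therapy, 8 of the 10 NF-kB and acute phase genes were higher in mice with both tumors than in mice with the intracranial tumor only. The share of all tested genes called higher between these groups was 24.4%. In that comparison 7 of 9 T cell genes were higher, among them the T cell receptor complex gene Cd3d (4.00 ± 1.07, adjusted p = 0.0128), as were 8 of 8 oligodendrocyte genes and 7 of 8 astrocyte genes. The astrocyte filament gene Gfap was higher by 5.05 ± 0.78 (adjusted p = 0.00455).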
